A study of Mus musculus with 16 samples.

Results

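Expression of 10 genes that mature beta cells keep low, or that mark beta cells losing their identity, was followed in 16 RNA-seq libraries of mouse islet cells. The genes were Hk1, Ldha, Slc16a1, Acot7, Oat, Aldh1a3, Mgst1, Smad3, Igfbp4 and Cxcl12, taken by symbol, and all 10 were found among the 25105 genes of the table. Islets of Grp78 flox/flox mice were dispersed into single cells, transduced with adenovirus expressing LacZ (Ad-LacZ) or Cre recombinase (Ad-Cre), and kept at 15 mM glucose over 72 hours of culture. Each virus was combined with DMSO or with JNK-IN-8, an inhibitor of all JNK kinases given from the start, so that every library carries the floxed alleles and a virus. The DMSO groups are called Ad-LacZ and Ad-Cre and the inhibitor groups Ad-Cre + JNK inhibitor and Ad-LacZ + JNK inhibitor. Each of these 4 groups has 4 libraries, from the preparations labelled F1, M1, M2 and F2. Each title names 2 animal numbers, whereas the methods count 4 mice, and animal ages were not in the labels. The adenovirus is not restricted to beta cells, and the RNA came from the mixed islet culture.

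So-called disallowed genes are active in most tissues and selectively silenced in beta cells. Lactate dehydrogenase A, the monocarboxylate transporter SLC16A1 and the low-Km hexokinase HK1 would let pyruvate, lactate and low glucose feed into insulin secretion, which is why their silence is regarded as part of beta cell identity. ALDH1A3, which oxidises retinaldehyde to retinoic acid, is widely used as a marker of dedifferentiated beta cells. Fibroblasts, pericytes and endothelial cells express several of these genes, and in a bulk culture more cells of such a type cannot be told apart from more RNA per beta cell.

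The promoter bases of Ldha, Slc16a1 and Oat are shown because Ldha and Slc16a1 followed each other closely over the libraries and Oat had the largest virus-associated difference among the genes tested. They are the 250 bases before the RefSeq start on GRCm38.p6, read 5′ to 3′ on the gene's strand. Ldha is chr7:46845554-46845803 on the plus strand (1 of 2 listed starts), Slc16a1 is chr3:104638414-104638663 on the plus strand, and Oat is chr7:132576399-132576648 on the minus strand. Capitals mark CACGTG (E-box), ACGTG (hypoxia response core, also contained in CACGTG), TGACGTCA (cAMP response element) and CCAAT, each searched on both strands.
Ldha: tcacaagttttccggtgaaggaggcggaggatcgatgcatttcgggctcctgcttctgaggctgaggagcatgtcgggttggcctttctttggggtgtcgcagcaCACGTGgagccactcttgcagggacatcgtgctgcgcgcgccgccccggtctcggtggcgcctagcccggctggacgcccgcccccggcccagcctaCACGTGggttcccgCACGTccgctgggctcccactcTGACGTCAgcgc
Slc16a1: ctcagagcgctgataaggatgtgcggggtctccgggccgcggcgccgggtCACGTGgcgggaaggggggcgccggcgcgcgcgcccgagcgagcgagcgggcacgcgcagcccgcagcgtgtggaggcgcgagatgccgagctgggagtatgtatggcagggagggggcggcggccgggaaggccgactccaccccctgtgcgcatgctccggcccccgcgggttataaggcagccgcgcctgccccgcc
Oat: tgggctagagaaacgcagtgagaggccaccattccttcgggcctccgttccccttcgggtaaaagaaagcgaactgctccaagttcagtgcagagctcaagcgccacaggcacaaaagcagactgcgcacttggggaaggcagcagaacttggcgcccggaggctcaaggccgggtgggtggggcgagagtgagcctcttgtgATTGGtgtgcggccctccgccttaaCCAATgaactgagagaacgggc
RefSeq promoters matched 9 of the 10 genes, and Aldh1a3 had no entry. CACGTG was found before Ldha, with first bases 145 and 48 bases before the start, and before Slc16a1, 200 bases before it, and 6.02% of all 32851 promoter windows of this length held it. ACGTG, found outside CACGTG 34 bases before the Ldha start, was held by 16.6% of windows. The window of the other listed Ldha start held none of the marked motifs. TGACGTCA lay 12 bases before the Ldha start and was held by 1.55% of windows, whereas CCAAT, found 47 and 22 bases before the Oat start, was held by 33.8%. TGACTCA (AP-1 site, 4.46% of windows), TGATGNAAT (C/EBP-ATF element, 0.816%) and the ER stress response element (0.113%) occurred before none of the 9 genes. These are matches of letters in a short window and not evidence of binding.

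Library depth, recovered from the read steps in the values, was 7.72 to 25.5 times 1000000 reads, and the shallowest library was Ad-Cre + JNK inhibitor F2, whose library name in the labels has another prefix and lane tag than the rest. Without it, no call of the 10 genes changed in the fits without a block. Hspa5, the gene that encodes GRP78, was higher in every library labelled Ad-Cre (1107 to 1598 RPKM) than in every library labelled Ad-LacZ (395 to 483 RPKM), with a log2 fold change of 1.52 (SE 0.18, limma adjusted p = 0.00212). A value per gene does not separate the floxed exons from the rest, so this value is no check of the knockdown. The study also measured Grp78 by qPCR in aliquots of the same samples, which is not analysed here. Ad-Cre and Ad-LacZ below are the names on the labels. Among cell markers, the sum of 12 stromal markers (Col1a1, Dcn, Pdgfrb and others) ran from 149.9 to 2155 RPKM over the 16 libraries, while the sum of 9 acinar markers did not exceed 2.78 RPKM and 3 to 8 of the 9 were listed at 0. The 16 beta cell identity genes, Ins1 and Ins2 among them, summed to 31358 to 80582 RPKM. Preparation M2 had the highest stromal sum in every group, and preparation F1 had the lowest.

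Per kilobase of transcript (RPKM, reads per kilobase and 1000000 reads), the 10 genes spanned more than an order of magnitude. Ldha was the most abundant, with a mean of 25.4 RPKM over the 16 libraries (9.68 to 62.0), followed by Oat at 15.2 (4.74 to 47.9) and Cxcl12 at 7.49 (2.99 to 25.0). Among all genes with a mean above 0, these lay at percentiles 91.0, 84.7 and 72.7. Mgst1, the lowest of the 10, lay at 46.8, so in this mixed culture the leading genes were not low. Igfbp4 had a mean of 5.87 but ranged from 0.349 to 28.8 RPKM. Acot7 and Hk1 averaged 4.46 and 3.89 RPKM, and Aldh1a3, Slc16a1, Smad3 and Mgst1 averaged 2.11, 1.57, 1.43 and 1.35 RPKM. The ranges over the libraries of each pair of neighbours in this order overlapped. The lowest values rest on few reads, 7 to 194 per library for Mgst1 and 42 to 363 for Slc16a1, against 637 to 4605 for Ldha.

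The levels of these genes differed more between preparations than between conditions. Of the 40 sets of 1 gene in 1 group, the highest library was M2 in 36 and the lowest was F1 in 26. Of the 12274 genes that passed 1 RPKM in 4 or more libraries, M2 was highest in 37.0% to 43.4% of genes and F1 lowest in 31.2% to 57.9%, depending on the group. Of the spread of log2 levels over the 16 libraries, the preparation took 38.0% (Igfbp4) to 74.8% (Acot7), and the 4 conditions took 11.9% (Acot7) to 45.5% (Oat). The medians over all genes compared were 26.0% and 36.5%. Oat was the only one of the 10 for which the condition took a larger share than the preparation.

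**Figure D1:**
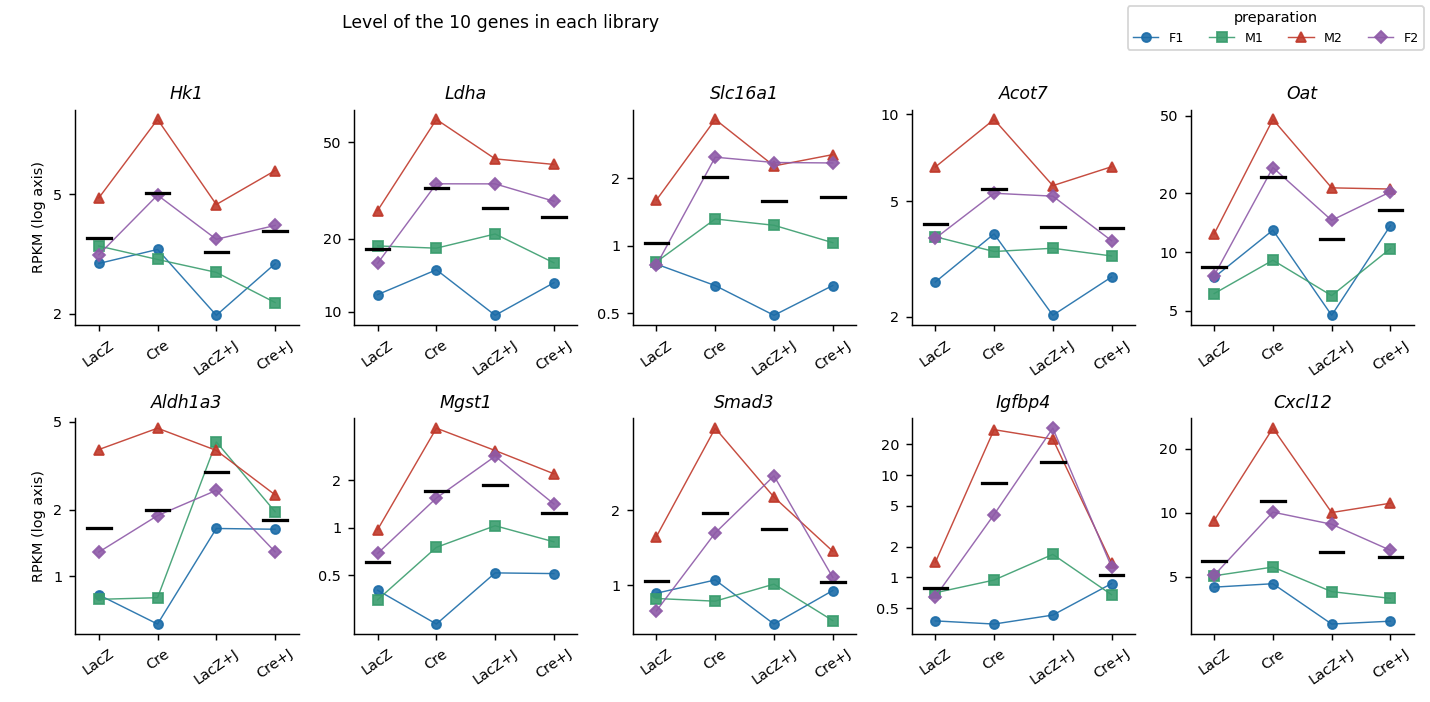
RPKM (log axis) of each of the 10 genes in the 4 groups, with 1 coloured symbol per preparation joined across groups and a black bar for the mean of 4 libraries. LacZ+J and Cre+J are the groups with JNK inhibitor. M2 (triangles) is highest in 36 of the 40 sets of 4 libraries.

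The first comparison, Ad-Cre against Ad-LacZ, asks what followed Cre expression in the floxed cells. With each library as an independent sample, none of the 10 genes passed limma's adjusted p of 0.05, in a comparison in which 16.5% of the 11590 genes tested did. Igfbp4 and Mgst1 were below the filter of more than 1 RPKM in at least 4 of the 8 libraries, so 8 were tested. The fitted log2 fold change was above 0 for these 8 (median 0.44, against -0.00 over all genes tested), and it was above 0 for all 10 without the filter. At an unadjusted p under 0.05, 1 of the 8 (Oat) was called, where 32.6% of all genes were, and Oat alone also passed the fold change of 1.5 that the study adds, as 10.3% of genes did. No gene of the 10 had groups that did not overlap, which 25.0% of genes tested had. With the preparation as a block, 3 of the 8 rose at an adjusted p under 0.05, namely Oat, Ldha and Cxcl12, where 15.8% of all genes rose and 34.0% changed in either direction. In the blocked fit without the filter, Oat passed (adjusted p = 0.0448) and Ldha and Cxcl12 did not (adjusted p = 0.119 and 0.158).

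Oat, the mitochondrial ornithine aminotransferase that links ornithine with glutamate and proline, showed the clearest difference. In preparations F1, M1, M2 and F2 it had 7.41, 6.12, 12.4 and 7.57 RPKM with Ad-LacZ and 13.0, 9.08, 47.9 and 27.1 RPKM with Ad-Cre. Ad-Cre was higher within each preparation, by 1.75, 1.48, 3.87 and 3.58 times, and the groups overlapped only through Ad-LacZ M2 and Ad-Cre M1. The log2 fold change was 1.2 (SE 0.38, limma adjusted p = 0.0626, exact two-sided permutation p = 0.0571 ignoring preparations, with 0.0286 the smallest possible). With the preparation as a block it was 1.2 (SE 0.21, limma adjusted p = 0.00453), and leaving out each preparation in turn under the block gave 0.99 to 1.42, with adjusted p from 0.00502 to 0.0231. The stromal marker sum was nearly level between the viruses in F1 (204.1 against 190.1 RPKM) and M1 (317.5 against 314.5 RPKM), and was 3.36 and 2.06 times higher with Ad-Cre in M2 and F2, and its part in the Oat difference was not tested.

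Ldha, which interconverts pyruvate and lactate, had 11.8, 18.7, 26.1 and 15.9 RPKM with Ad-LacZ and 14.9, 18.3, 62.0 and 33.7 RPKM with Ad-Cre in F1, M1, M2 and F2. The libraries Ad-Cre M2 and Ad-Cre F2 lay above all Ad-LacZ libraries, and the other 2 lay within their range. The log2 fold change was 0.63 (SE 0.35, limma adjusted p = 0.241), and under the block 0.63 (SE 0.18, adjusted p = 0.0293). Under the block the call was lost without F1, M2 or F2 (limma adjusted p = 0.0585, 0.0902 and 0.118) and held without M1 (0.84, adjusted p = 0.0146). In M1 the Ad-Cre RPKM was 0.979 of the Ad-LacZ RPKM, and on the scaled log2 scale the 2 were level. Leaving out M1 thus raises the value by construction, and that pass adds no support. The 2 preparations with the larger differences were those in which the stromal sum rose.

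Cxcl12, a chemokine made abundantly by stromal and vascular cells, had 4.46, 5.04, 9.18 and 5.07 RPKM with Ad-LacZ and 4.63, 5.55, 25.0 and 10.1 RPKM with Ad-Cre. Its values in F1 and M1 were within 1.04 and 1.1 times of each other, and Ad-Cre was higher by 2.72 times in M2 and 1.98 times in F2. The log2 fold change was 0.59 (SE 0.38, limma adjusted p = 0.315), and under the block 0.59 (SE 0.19, adjusted p = 0.0434), which was lost without M2 (0.35, adjusted p = 0.12) or F2 (0.52, adjusted p = 0.144). As for Ldha, the preparations that differed were those with more stromal marker RNA, and the part of stromal RNA in either result was not tested.

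The remaining genes did not pass the adjusted threshold on RPKM in either fit over all 4 preparations. Slc16a1 (0.94, adjusted p = 0.0312) and Smad3 (0.83, adjusted p = 0.0325) passed with limma voom on recovered reads and the block. That fit called 4229 of the 11590 genes tested. Slc16a1, the pyruvate and lactate carrier, had 0.829, 0.848, 1.60 and 0.822 RPKM with Ad-LacZ and 0.665, 1.32, 3.66 and 2.48 RPKM with Ad-Cre (log2 fold change 0.48, SE 0.25, limma adjusted p = 0.225). Under the block its limma adjusted p was 0.0507, just outside the threshold. Without F1, the preparation in which it was lower with Ad-Cre, the limma adjusted p was 0.0211 (0.68). Hk1, which is saturated at low glucose, gave 0.32 (SE 0.22), and Acot7, which hydrolyses long-chain acyl-CoA, gave 0.30 (SE 0.25). Both were higher with Ad-Cre in 3 of 4 preparations, the exception being M1, and without M1 both passed under the block (0.45, adjusted p = 0.0486, and 0.43, adjusted p = 0.028). For Slc16a1, Hk1 and Acot7, leaving out the contrary preparation raises the value by construction, so these passes add no support. Over all genes, the blocked fits without M1 and without F1 called 3093 and 2791. Smad3, a transcription factor of TGF-beta signalling, gave 0.40 (SE 0.26), and Ad-Cre M2 at 4.27 RPKM stood far above the other 7 libraries, which lay between 0.789 and 1.62.

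Aldh1a3 differed least of the 8 tested. It had 0.824, 0.786, 3.75 and 1.29 RPKM with Ad-LacZ and 0.607, 0.799, 4.68 and 1.88 RPKM with Ad-Cre in F1, M1, M2 and F2. The order of the preparations was almost the same in both groups, and the log2 fold change was 0.09 (SE 0.39, limma adjusted p = 0.889; SE 0.11, adjusted p = 0.514 under the block). Igfbp4, a binding protein that sequesters insulin-like growth factors, had 0.375, 0.706, 1.40 and 0.646 RPKM with Ad-LacZ and 0.349, 0.940, 27.8 and 4.11 RPKM with Ad-Cre. It was thus similar in F1 and M1 and 19.9 and 6.36 times higher in M2 and F2, and the fit without the filter gave 1.32 (SE 0.83). Mgst1, a microsomal glutathione transferase, gave 0.53 (SE 0.37) in that fit, from 0.348 to 0.972 RPKM with Ad-LacZ and 0.244 to 4.30 RPKM with Ad-Cre.

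**Figure D2:**
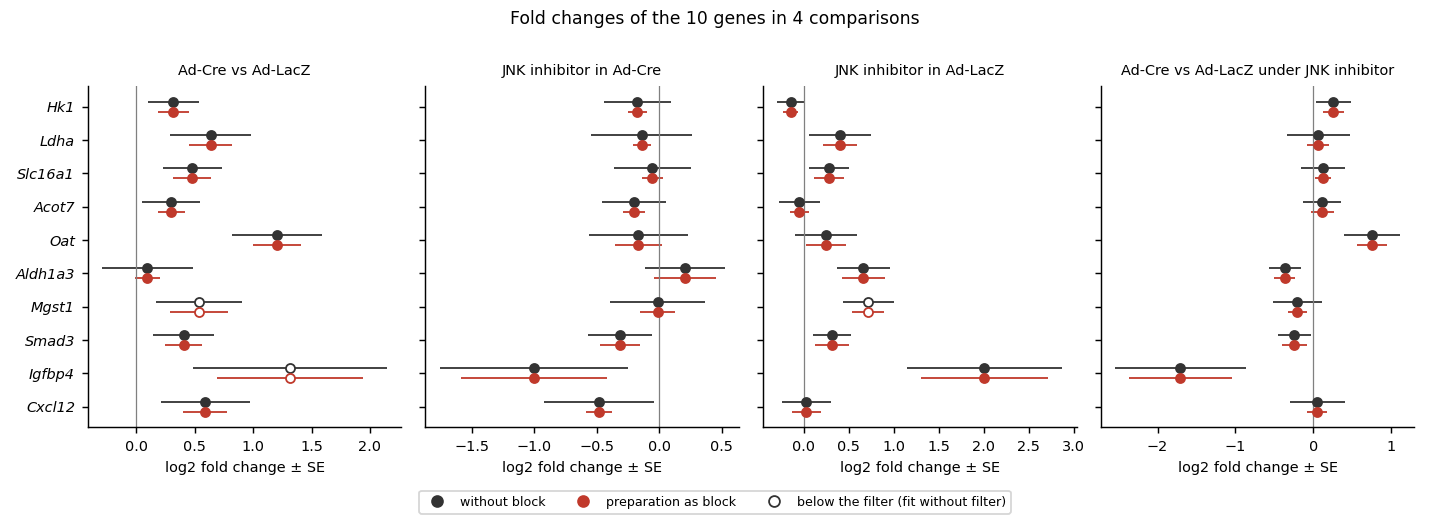
Log2 fold changes with their standard errors (bars) for the 10 genes in the 4 comparisons of 4 against 4 libraries, without a block (black) and with the preparation as a block (red). Open symbols are genes below the filter, from the fit without it. Oat with Ad-Cre is 1.2, and Igfbp4 with the inhibitor in Ad-LacZ is 2.01.

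The next comparisons ask what the JNK inhibitor did to each virus group. They share the Ad-Cre or Ad-LacZ libraries with the first comparison, so each gene's values are given side by side and not as independent results. In Ad-Cre, none of the 10 genes passed limma's adjusted p of 0.05, as 0.0174% of 11503 genes did, and none passed an unadjusted p under 0.05, as 8.03% of genes did. The fitted fold change was below 0 for 9 of the 10 (median -0.17, all genes -0.01), although Mgst1, at -0.01, turned to 0.12 with a pseudocount of 0.1. With the block, 1 gene of the 10 (Cxcl12) fell, where 2.10% of genes fell, and without the filter this call was lost (adjusted p = 0.114).

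Cxcl12 had 3.08, 3.95, 11.1 and 6.65 RPKM in Ad-Cre + JNK inhibitor, below the Ad-Cre value of the same preparation in each of the 4. The groups overlapped, and the log2 fold change was -0.48 (SE 0.44, limma adjusted p = 0.877), or -0.48 (SE 0.10, adjusted p = 0.046) under the block. Without M2 the blocked value was -0.37 (limma adjusted p = 0.00902), and without F1, M1 or F2 the call was lost, with limma adjusted p from 0.148 to 0.172. This loss was not particular to Cxcl12. Over all genes, 3058 were called under the block without M2, and 0 without F1, without M1 or without F2. The stromal sum was also lower with the inhibitor in all 4 preparations, at 0.407 to 0.735 of the Ad-Cre value. The macrophage sum was higher with the inhibitor in F1 and M1 and lower in M2 and F2. The part of either in the Cxcl12 difference was not tested.

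Ldha, Hk1 and Smad3 were likewise lower with the inhibitor in 4 of 4 preparations, with log2 fold changes of -0.14 (SE 0.41), -0.18 (SE 0.27) and -0.32 (SE 0.25) that passed no threshold. Ldha had 13.2, 15.9, 40.5 and 28.6 RPKM with the inhibitor, so that the order of the preparations was kept. Oat had 13.7, 10.4, 21.0 and 20.4 RPKM, higher than without the inhibitor in F1 and M1 and lower in M2 and F2 (-0.17, SE 0.39). Igfbp4 had the largest fitted difference of the 10, -1.0 (SE 0.75, limma adjusted p = 0.826), from 0.349, 0.940, 27.8 and 4.11 RPKM to 0.869, 0.676, 1.38 and 1.26 RPKM. It was lower with the inhibitor in M1, M2 and F2 and 2.49 times higher in F1. Aldh1a3 was the exception in direction at 0.21 (SE 0.32), with values of 1.63, 1.96, 2.34 and 1.29 RPKM that were closer together than in Ad-Cre.

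In Ad-LacZ, 9 of the 10 genes were tested and none passed limma's adjusted p of 0.05, as 0.197% of 11657 genes did. With the block none was called either, as 0.335% of genes were. The fitted fold change was above 0 for 7 (median 0.28, all genes -0.02), of which Cxcl12 at 0.03 turned below 0 without preparation F2. Igfbp4 was the 1 gene at an unadjusted p under 0.05, which 6.07% of genes reached. It had 0.427, 1.68, 22.5 and 28.8 RPKM with the inhibitor in F1, M1, M2 and F2, against 0.375, 0.706, 1.40 and 0.646 RPKM without it. The increase was thus 16.1 and 44.5 times in M2 and F2, 2.37 times in M1 and 1.14 times in F1. Its log2 fold change was 2.01 (SE 0.87, p = 0.0455, limma adjusted p = 0.793, or 0.323 under the block; exact permutation p = 0.114). The stromal sum rose by 2.24, 2.10 and 1.35 times in M2, F2 and M1 and was 0.992 in F1, and the macrophage sum rose by 1.53 to 2.36 times. Their part was not tested.

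Aldh1a3 was higher with the inhibitor in F1, M1 and F2, at 1.65, 4.06 and 2.45 RPKM, and level in M2 at 3.71 RPKM (0.66, SE 0.30, limma adjusted p = 0.83; 0.342 under the block). It was the only one of the 10 whose highest library of a group was M1. The sum of 7 duct markers, 266 to 429 RPKM in Ad-LacZ and 523 to 1151 RPKM with the inhibitor, moved with it over the libraries (r = 0.62 over 16 libraries that share preparations). The part of duct cells was not tested. Mgst1, below the filter, was higher with the inhibitor in 4 of 4 preparations, from 0.400, 0.348, 0.972 and 0.686 RPKM to 0.516, 1.03, 3.10 and 2.85 RPKM (exact permutation p = 0.0857, and a log2 fold change of 0.72, SE 0.29, in the fit without the filter). Ldha gave 0.40 (SE 0.34), and Cxcl12 gave 0.03 (SE 0.27).

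Between the viruses in the presence of the inhibitor, all 10 genes were tested and none passed limma's adjusted p of 0.05, as 20.6% of 11598 genes did, or an unadjusted p under 0.05, as 36.1% did. With the block, 1 of the 10 (Oat) rose, where 12.7% of genes rose, and without the filter this call was lost (adjusted p = 0.079). Oat had 4.74, 5.98, 21.3 and 14.5 RPKM in Ad-LacZ + JNK inhibitor and 13.7, 10.4, 21.0 and 20.4 RPKM in Ad-Cre + JNK inhibitor. It was 2.89, 1.74 and 1.40 times higher in F1, M1 and F2 and level in M2 (0.76, SE 0.36, limma adjusted p = 0.162; SE 0.19, adjusted p = 0.0348 under the block). The blocked call was lost without F1, M1 or F2 (limma adjusted p = 0.0514, 0.159 and 0.129), and without M2 it was 0.93 (adjusted p = 0.00714, or 0.0499 without the block). Leaving out M2, where Oat was level, raises the value by construction, so these passes add no support. Over all genes, 4337 were called under the block without M2, and 2720, 478 and 358 without F1, M1 and F2. The stromal sum was lower with Ad-Cre in all 4 preparations, at 0.438 to 0.795 of the Ad-LacZ value, and its part was not tested.

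Igfbp4 was 22.5 and 28.8 RPKM with Ad-LacZ and 1.38 and 1.26 RPKM with Ad-Cre in M2 and F2 under the inhibitor (-1.71, SE 0.84, limma adjusted p = 0.175). Its level was below 2 RPKM in the other 2 preparations of both groups. Aldh1a3 and Mgst1 were lower with Ad-Cre in M1, M2 and F2 (-0.37, SE 0.21, and -0.21, SE 0.31). In F1 both were level, at 0.992 and 0.990 of the Ad-LacZ RPKM. Under the block, Aldh1a3 and Igfbp4 passed without F1 (-0.49, limma adjusted p = 0.0327, and -2.43, adjusted p = 0.0224) and not with it. In F1 Igfbp4 was higher with Ad-Cre and Aldh1a3 was level, so leaving F1 out enlarges both values by construction. That fit called 2720 genes. Ldha, Slc16a1, Acot7, Hk1 and Cxcl12 lay between 0.05 and 0.26, and Ldha and Cxcl12, at 0.06 and 0.05, turned below 0 on the RPKM as deposited.

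Whether the virus difference changed with the inhibitor was tested as an interaction over all 16 libraries. None of the 10 genes passed limma's adjusted p of 0.05, as none of 12274 genes did (0.00%). At an unadjusted p under 0.05, limma called 3.13% of genes and 1 of the 10, Igfbp4 (-3.02, SE 1.26, limma adjusted p = 0.999). The term was below 0 for all 10, from -3.02 to -0.05 (Hk1, which turned to 0.0047 under quantile normalization), with a median of -0.50 against -0.00 over all genes. For the 10 stromal markers tested the median was -1.69, also with none above 0 and none called. Under the block Ldha (-0.56), Smad3 (-0.64), Igfbp4 and Mgst1 (-0.74) had an unadjusted p under 0.05, as 11.5% of genes did, and none an adjusted one.

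Levels of the 10 genes were positively correlated over the libraries. Pearson's r of their log2 levels was above 0 in 45 of 45 pairs, with a median of 0.77, and in 42 of 45 pairs after each preparation's mean was removed, with a median of 0.61. Against the summed stromal markers, r over the 16 libraries ran from 0.60 (Aldh1a3) to 0.94 (Ldha), and from 0.26 (Aldh1a3) to 0.79 (Smad3) after the preparation means were removed. These libraries share preparations and RNA composition, so the values describe them and carry no test. No such values for other genes are given beside them, so they are not shown to be particular to the 10. Over the beta cell identity sum the same correlations were negative, from -0.64 (Oat) to -0.92 (Mgst1), and after the preparation means were removed they ran from -0.80 (Mgst1) to 0.06 (Acot7), with Hk1 also above 0 at 0.03. That sum adds plain RPKM, Ins1 and Ins2 included. Its most abundant genes weigh most, so it does not stand for each identity gene alike.

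**Figure D3:**
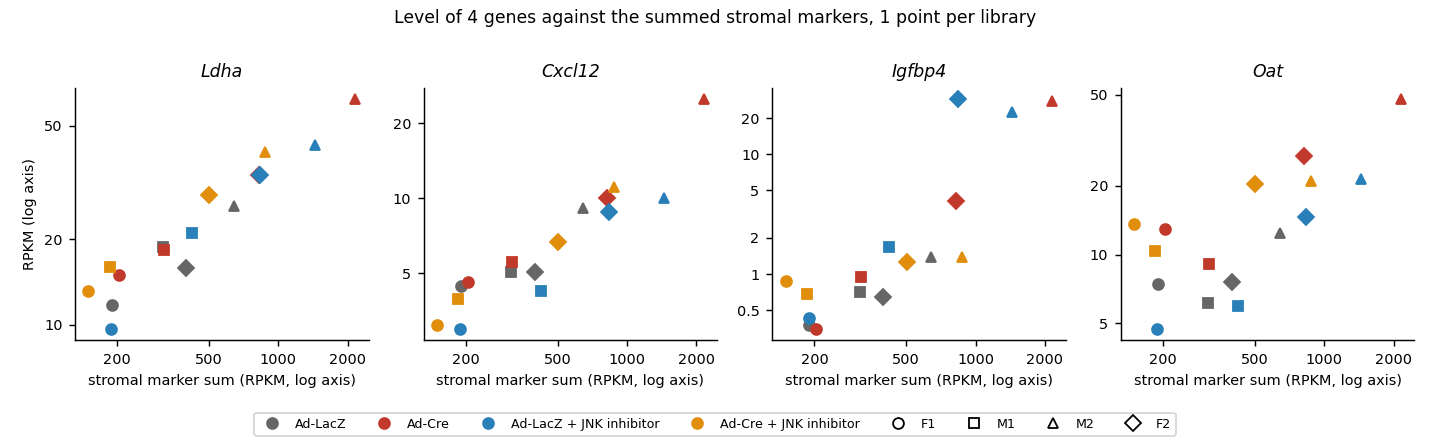
RPKM of Ldha, Cxcl12, Igfbp4 and Oat against the summed RPKM of 12 stromal markers, both on log axes, with 1 point per library, coloured by group and shaped by preparation. Ldha follows the stromal sum most closely (r = 0.94), and 3 libraries of Igfbp4 stand above 20 RPKM.

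The genes most like each of the 10 over the 16 libraries, among 12273 others, were taken by Pearson's r. For Ldha they were Emp2 (0.97), Anxa2 (0.97) and Col5a2 (0.96), and for Slc16a1 they were Emp2 (0.96), Ldha (0.95) and Mob1a (0.94). Hk1 was most like Dlc1, Adamts1 and Pdlim1 (each 0.95), and Acot7 was most like Capn2, Pdlim1 and Crim1 (each 0.94). The genes nearest to Oat were Prkcd (0.96), Marcksl1 and Rcn1 (each 0.95). Smad3 was most like Ptgfrn (0.97), Ptk7 and Lama5 (each 0.94), Cxcl12 was most like Cavin1 (0.98), Wwc2 and Jcad (each 0.97), and Mgst1 was most like Hlx (0.97), Lrp1 and Slc15a3 (each 0.96). Igfbp4, whose order rests on 3 high libraries, was most like Mmp3 (0.98), Cpxm1 and Iglv1 (each 0.97). The likeness was lowest for Aldh1a3, with Zfp469, Dusp4 and Blnk (each 0.79).

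Levels per kilobase place the genes among their isozymes. Hk1 exceeded Hk2 in all 16 libraries, and Hk3 averaged 0.702 RPKM. Ldha exceeded Ldhb in 16 of 16 libraries. The ratio of Ldha to Ldhb was 1.98 to 4.49 in Ad-LacZ and 6.30 to 16.8 in Ad-Cre, groups that did not overlap, and under the inhibitor 1.48 to 5.34 and 4.2 to 16.5. Ldhb, which favours the use of lactate, carried part of that shift, as it was 5.84 ± 0.08 RPKM with Ad-LacZ and 2.87 ± 0.66 RPKM with Ad-Cre (SD, n = 4), and its fitted log2 difference was -0.84 (SE 0.10, limma adjusted p = 0.002).

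Slc16a1 (mean 1.57 RPKM) and Slc16a3 (1.47 RPKM) were at like levels, and Slc16a7 was at 0.162 RPKM. Aldh1a3 exceeded Aldh1a1 in 16 of 16 libraries, by 1.85 to 5.38 times in Ad-LacZ and 6.27 to 47.1 times in Ad-Cre. Aldh1a1 itself was low, at 0.503 ± 0.219 and 0.126 ± 0.0587 RPKM (SD, n = 4), below the filter. Aldh1a2 ranged from 0.352 to 12.6 RPKM, with the top value in Ad-Cre M2.

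**Figure D4:**
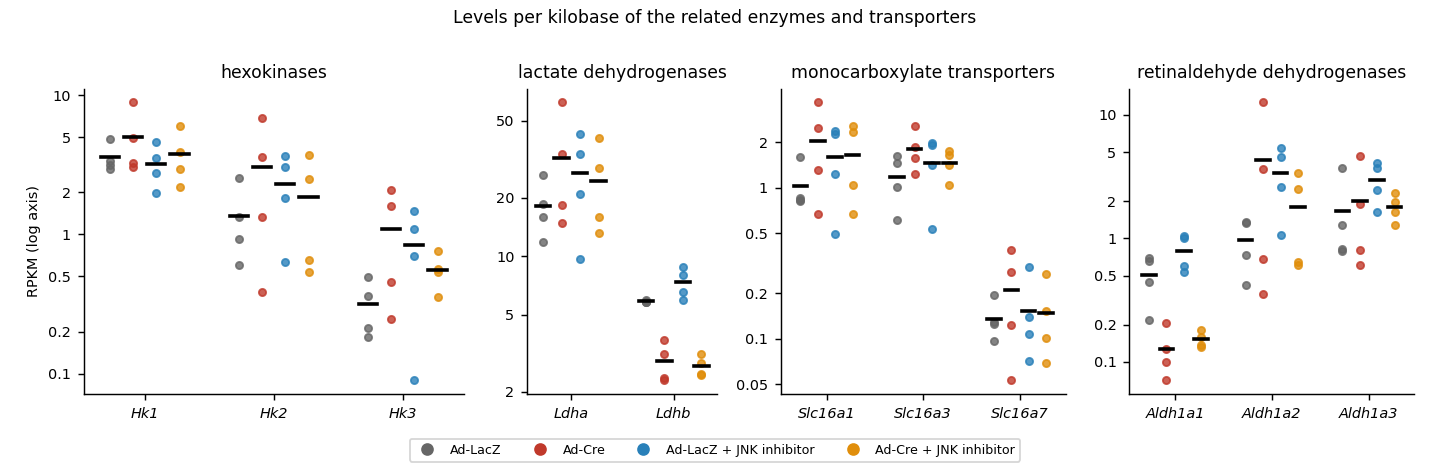
RPKM (log axis) of Hk1, Hk2 and Hk3, lactate dehydrogenases, monocarboxylate transporters and retinaldehyde dehydrogenases, with 1 point per library, coloured by group, and a black bar for the mean of 4 libraries. Ldhb is 5.80 to 5.96 RPKM in Ad-LacZ and 2.30 to 3.69 RPKM in Ad-Cre, whereas the Ldha groups overlap.

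Genes of the neighbouring pathways gave a more divided picture in Ad-Cre against Ad-LacZ, where 7.14% of genes rose and 9.40% fell at limma's adjusted p under 0.05. Of 12 other disallowed genes, 8 were tested and none was called, with fold changes above 0 for 8 (median 0.40). Of 13 genes of immature or progenitor cells, 1 of 9 tested rose (Cd81, a surface marker of immature beta cells, 0.61, SE 0.17). Of 15 ornithine, proline and polyamine genes listed beside Oat, 2 of 11 tested rose and none fell (median 0.34). They were Odc1, which makes putrescine from ornithine (0.83, SE 0.16), and Srm, the spermidine synthase (0.78, SE 0.12).

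Beside Hk1, Ldha and Slc16a1, 2 of 15 tested genes of hexose phosphorylation, lactate and pyruvate rose and 1 fell. The rises were the pyruvate dehydrogenase subunits Pdhb (0.63, SE 0.14) and Pdha1 (0.46, SE 0.10), and the fall was Ldhb. Of 11 retinoid genes tested, 1 rose (Rdh10, which makes retinaldehyde, 0.60, SE 0.17). Of 20 TGF-beta and SMAD genes none rose and 1 fell (Acvr1b, an activin receptor, -0.38, SE 0.10), and of 8 genes of the IGF system 1 fell (Igfbp5, -0.96, SE 0.15). Of 11 genes of the glutathione transferases and of the membrane protein family of Mgst1, 2 rose, Ptges (0.88, SE 0.11) and Gsto1 (0.79, SE 0.12). None of 6 acyl-CoA thioesterase genes and neither of 2 tested CXCL12 receptor genes was called.

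The cell markers moved too. Of 16 beta cell identity genes, 7 fell and none rose (median -0.80), among them Ucn3 (-2.10, SE 0.59), G6pc2 (-1.95, SE 0.33) and the transcription factor Neurod1 (-1.30, SE 0.21), while Ins1 and Ins2 did not pass. Of 8 macrophage markers, 4 rose (median 0.81), led by C1qb (1.11, SE 0.27), Tyrobp (0.99, SE 0.29) and C1qc (0.91, SE 0.24). Of 12 stromal markers 8 were tested and none was called (median 0.86). None of 5 endothelial markers tested or of 7 alpha, delta and PP cell markers was called, and 2 of 5 duct markers rose, Krt18 (0.56, SE 0.14) and Krt8 (0.51, SE 0.13). The macrophage sum was 59.1 to 66.4 RPKM in Ad-LacZ and 67.1 to 140.1 RPKM in Ad-Cre, and its part in the levels of the 10 genes was not tested.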

How the data were processed

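RNA-seq was made from poly(A) RNA of dispersed Grp78 flox/flox islet cells, 4 libraries in each of 4 groups assigned by title. Reads from both ends of each fragment were mapped by the authors with STAR (the reference their methods cite; GRCm38 in the submitters' processing notes), and RPKM values of 25105 genes were deposited. Mapping settings, gene lengths and the treatment of reads shared with pseudogenes, which could affect Ldha, are not given in the sources used here. A further 3 columns that no label names were not used. RPKM times the GENCODE M21 exon length gave whole reads (within 0.05) for about 91.0% (Ad-LacZ F1) of values under 1000 reads, hence the depths, and for all values of the 10 genes. RPKM divides by length and depth, so low genes rest on few reads.

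Values were scaled by unweighted TMM factors (trim 30% of ratios, 5% of levels) and log2(RPKM + 1) was fitted with limma 3.58.1 (eBayes with trend) in R 4.3.3, over genes that passed 1 RPKM in 4 or more of the libraries fitted (3 where a replicate was left out), with Benjamini-Hochberg adjustment over all genes tested. Fold changes on this scale understate low genes. Exact permutation tests were two-sided, over all splits of a comparison's libraries into 4 and 4, and ignored the preparations. Tables used Python 3.11.15. The procedure was tested on simulated data. The members and gene lists were chosen with earlier results of these data known. Genes named are the 10, up to 3 called genes per list with the largest change in Ad-Cre against Ad-LacZ, the 3 most alike genes per member, isozymes (some are not reported here) and Hspa5.

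The libraries of a preparation are paired: their titles name the same animals, and per the methods the viruses were used side by side on cells of one replicate. The methods name no block for the sequencing test, and the main fits have none. As a check, residual correlations within preparations were 0.488 to 0.720 for Ad-Cre against Ad-LacZ, 0.646 to 0.821 for the inhibitor in Ad-Cre, 0.131 to 0.826 in Ad-LacZ and 0.158 to 0.663 between viruses under the inhibitor. Alternatives were the pseudocount, filter, scaling, trend, all libraries in one fit, the block and each replicate left out; voom on recovered reads, block combinations and the fit without Ad-Cre + JNK inhibitor F2 were added after seeing the data.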

Additional observations from a re-analysis of the deposited data

Results flagged for a closer look

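In 40 sets of 1 gene in 1 group of 4 libraries, 4 held a library whose gap to the nearest other exceeded 0.829 of the group's range (Dixon's test, which flags about 1 in 20 sets by chance); each of the 4 was preparation M2. Aldh1a3 was 3.75 RPKM in Ad-LacZ M2, against 0.786 to 1.29 in the other 3 libraries. Slc16a1 was 1.60 RPKM in Ad-LacZ M2, against 0.822 to 0.848. Cxcl12 was 9.18 RPKM in Ad-LacZ M2, against 4.46 to 5.07. Igfbp4 was 27.8 RPKM in Ad-Cre M2, against 0.349 to 4.11. The stromal marker sum was also highest in M2 in both groups, and its part was not tested.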

How the results depend on the processing

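The preparation block changed 5 calls: of the 10 genes, 3 were called in Ad-Cre against Ad-LacZ (5 with voom on recovered reads and the block, 1 with no filter and the block), 1 for the inhibitor in Ad-Cre and 1 between viruses under the inhibitor (in each, 1 with voom and the block and 0 with no filter and the block). It changed no other call. Leaving out each replicate in turn, with or without the block, the counts were 0 to 5 in Ad-Cre against Ad-LacZ, 0 to 1 for the inhibitor in Ad-Cre, 0 to 1 for it in Ad-LacZ (Mgst1 without F1, which then passed the filter through the inhibitor group alone), 0 to 2 between viruses under it and 0 for the interaction. Over all genes, Ad-Cre against Ad-LacZ had 1917 calls, against 3936 with the block and 182 (without F2) to 3093 with a preparation left out. Voom with the block called 4229 there, and no filter with the block 2357. For the inhibitor in Ad-Cre, 2 were called, against 778 with the block and 0 to 3058 with a preparation left out. Voom with the block called 884 there, and no filter with the block 31. For the inhibitor in Ad-LacZ, 23 were called, against 0 to 135 with a preparation left out. Between viruses under the inhibitor, 2393 were called, against 2879 with the block and 358 to 4337 with a preparation left out. Voom with the block called 2817 there, and no filter with the block 2039.

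Of 891 values of single genes under an alternative, 838 kept their direction and side of the threshold, 28 passed it and 25 changed sign, all of them uncalled. On the log2 scale, the inhibitor in Ad-Cre gave Mgst1 0.12 with a pseudocount of 0.1 and 0.022 with voom, Aldh1a3 -0.0041 to 0.44 and Oat -0.32 to 0.060 with a replicate left out. The inhibitor in Ad-LacZ gave Acot7 -0.15 to 0.0084 and Cxcl12 -0.14 to 0.16 with a replicate left out. Under the inhibitor, Ldha was -0.0673 on RPKM as deposited, -0.0289 with quantile normalization and -0.050 to 0.17 with a replicate left out, and Cxcl12 was -0.070 on RPKM as deposited and -0.058 to 0.14. The interaction of Hk1 was 0.0047 with quantile normalization and -0.14 to 0.0024 with a replicate left out. The cause of these changes was not tested. RPKM as deposited moved the median of all genes to -0.14 for the inhibitor in Ad-Cre, -0.14 between viruses under it and -0.12 in the interaction. Leaving out Ad-Cre + JNK inhibitor F2, the shallowest library, changed no call of the 10 genes and turned Ldha under the inhibitor to -0.0154.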
